A study of Homo sapiens with 6 samples.

Results

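HSF1 and 9 heat shock chaperone and cochaperone genes were examined in MDA-MB-231 cells exposed to nitidine chloride (NCD). The genes were HSF1, HSPA1A, HSPA1B, HSPA8, DNAJB1, HSPH1, HSP90AA1, HSPB1, HSPD1 and BAG3. They were matched by symbol to Ensembl identifiers, and all 10 were found among the 63241 genes of the count files. All 10 also passed the filter on low counts, which left 15295 genes for testing. MDA-MB-231 is an established human line of triple-negative breast cancer, and NCD is a benzophenanthridine alkaloid from plants of the genus Zanthoxylum. RNA-seq was performed on 3 libraries from cells given 5 µM NCD for 24 h and on 3 libraries from cells given 0.1% DMSO, its solvent, for 24 h. Neither group carried a genetic change introduced for the study, and each library came from cultured cells of the same line. The labels do not say whether the libraries of a group came from separate cultures, so the p-values measure the spread between these libraries, which may be technical.

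HSF1 is the transcription factor that governs the heat shock response. At rest it is held inactive in the cytoplasm and nucleus by chaperones, and when unfolded proteins accumulate it forms trimers, enters the nucleus and binds heat shock elements, which are runs of the unit nGAAn in alternating orientation. Its best known targets are the inducible HSP70 genes HSPA1A and HSPA1B, the J-domain protein DNAJB1, the small heat shock protein HSPB1, the HSP110 exchange factor HSPH1, the inducible HSP90 gene HSP90AA1 and the cochaperone BAG3. HSPA8 encodes the constitutive HSP70 of the cytosol, which folds new proteins and feeds chaperone-mediated autophagy, and HSPD1 encodes HSP60, the chaperonin of the mitochondrial matrix. Cancer cells commonly hold these chaperones at high levels. HSF1 itself is controlled largely by phosphorylation, acetylation and chaperone binding, which RNA-seq does not measure.

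The promoters are shown because HSF1 acts on its targets through heat shock elements. RefSeq promoter sequences on GRCh38.p14 were at hand for 9 of the 10 genes, with 13 start sites among them, and HSF1 had no entry. The 250 bases before each start were searched for GAANNTTC or TTCNNGAA (an element of 2 units) and for the same letters followed by NNGAA or NNTTC, which adds a unit in the alternating orientation (an element of 3 units). Each search covers both strands, and every 3-unit element contains overlapping 2-unit ones. A 2-unit element was present at 7 of the 13 starts, belonging to 7 genes, against 11.6% of 35116 RefSeq promoters of the same length. A 3-unit element was present at 3 starts, those of HSPA8, HSP90AA1 and HSPD1, against 0.441% of the promoters. In the windows of HSPH1 and BAG3 these letters were not found. The stretches below are written 5′ to 3′ on the strand of the gene with the elements in capitals. For HSPA1A, HSPA1B, DNAJB1 and HSPB1 they are the bases outside annotated exons, and for the others 30 bases around the elements, since those lie in an exon of some annotated transcript.
HSPA1A, chr6:31815293-31815463, plus strand: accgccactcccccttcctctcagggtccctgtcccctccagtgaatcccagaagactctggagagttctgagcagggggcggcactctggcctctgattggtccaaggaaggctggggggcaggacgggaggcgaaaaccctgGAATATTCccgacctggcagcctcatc
HSPA1B, chr6:31827488-31827734, plus strand: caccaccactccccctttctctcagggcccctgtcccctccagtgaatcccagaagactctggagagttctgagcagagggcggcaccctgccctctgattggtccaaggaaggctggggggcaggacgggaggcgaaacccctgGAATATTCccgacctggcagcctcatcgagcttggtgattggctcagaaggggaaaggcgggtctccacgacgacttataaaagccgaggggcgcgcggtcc
DNAJB1, chr19:14518421-14518647, minus strand: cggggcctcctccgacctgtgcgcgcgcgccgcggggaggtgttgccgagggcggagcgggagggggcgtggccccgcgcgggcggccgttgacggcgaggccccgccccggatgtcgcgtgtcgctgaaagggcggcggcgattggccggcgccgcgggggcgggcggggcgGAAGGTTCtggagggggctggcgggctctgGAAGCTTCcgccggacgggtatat
HSPB1, chr7:76302423-76302543, plus strand: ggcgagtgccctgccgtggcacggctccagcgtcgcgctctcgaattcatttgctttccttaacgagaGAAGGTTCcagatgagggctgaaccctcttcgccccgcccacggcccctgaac
HSPA8 distal, chr11:123062345-123062374, minus strand: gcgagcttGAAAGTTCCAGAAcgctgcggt
HSPA8 proximal, chr11:123062170-123062199, minus strand: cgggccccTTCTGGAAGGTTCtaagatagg
HSP90AA1, chr14:102087104-102087133, minus strand: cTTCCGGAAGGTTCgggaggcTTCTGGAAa
HSPD1, chr2:197500061-197500090, minus strand: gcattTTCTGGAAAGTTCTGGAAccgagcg
HSPA1A and HSPA1B held the same 8 letters at almost the same place, with the first base at -106 and -105 from the start. HSPA8 held 4 elements of 2 units in an overlapping distal pair and an overlapping proximal pair, with first bases at -230 and -225 and at -55 and -50. Those of DNAJB1 began at -77 and -47 and that of HSPB1 at -182. The HSPD1 elements, at -245 to -235, lie towards the divergent gene HSPE1, which encodes the partner chaperonin HSP10.

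The libraries held between 18223594 and 19410833 counts with DMSO and between 18232169 and 21629653 with NCD. Markers of the line were present, in CPM (counts relative to the TMM-scaled size of the library). VIM was at 2960 to 3160 CPM with DMSO and 2490 to 2750 CPM with NCD, and KRT18 at 370 to 430 and 431 to 515 CPM. CD44 and EGFR were present too and moved further between the groups. CD44 went from 966 to 998 CPM with DMSO down to 261 to 289 CPM with NCD. EGFR went from 161 to 183 CPM down to 26.1 to 30.1 CPM, and the part of these shifts in the chaperone values was not tested. By contrast, the hormone receptors ESR1 and PGR were at or below 0.384 and 0.155 CPM, and the leucocyte marker PTPRC, the endothelial marker PECAM1 and the hepatocyte marker ALB at or below 0.0566, 0.979 and 0.11 CPM. ERBB2 was at 35.2 to 38.4 CPM with DMSO and 58.3 to 62.5 CPM with NCD. The third NCD library stood apart from the others of its group, since its counts differed from theirs with a chi-square of 14.41 and 12.86 per degree of freedom, against 2.05 between the other two. The second DMSO library likewise stood apart in its group, at 15.42 and 7.88 against 4.17 between the other two. Leaving out the second DMSO library changed no call among the 10 genes, and values without the third NCD library are given below wherever it moved a result. Over all tested genes the median log2 fold change was 0.04.

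Of the 10 genes, 1 was differentially expressed, which here means an adjusted p below 0.05 in edgeR's quasi-likelihood test with an absolute log2 fold change above 1. This was HSPB1, which was higher with NCD. Among all 15295 tested genes 31.0% met the same rule, with 13.5% higher and 17.5% lower. With no fold threshold 5 of the 10 passed the adjusted p, against 69.3% of all tested genes. HSPA1A, HSPA1B, DNAJB1 and HSPB1 were higher (4 of 10, against 35.3% of all tested genes), HSPA8 was lower (1 of 10, against 34.1%), and HSF1, HSPH1, HSP90AA1, HSPD1 and BAG3 did not pass. The libraries of the 2 groups did not overlap in 7 of the 10, against 72.6% of all tested genes. NCD was above DMSO without overlap in 5 of the 10, against 37.3% of all tested genes, and below it in 2 of the 10, against 35.3%. The median log2 fold change of the 10 genes was 0.13. All levels and fold changes use library sizes scaled by TMM unless another scale is named.

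**Figure D1:**
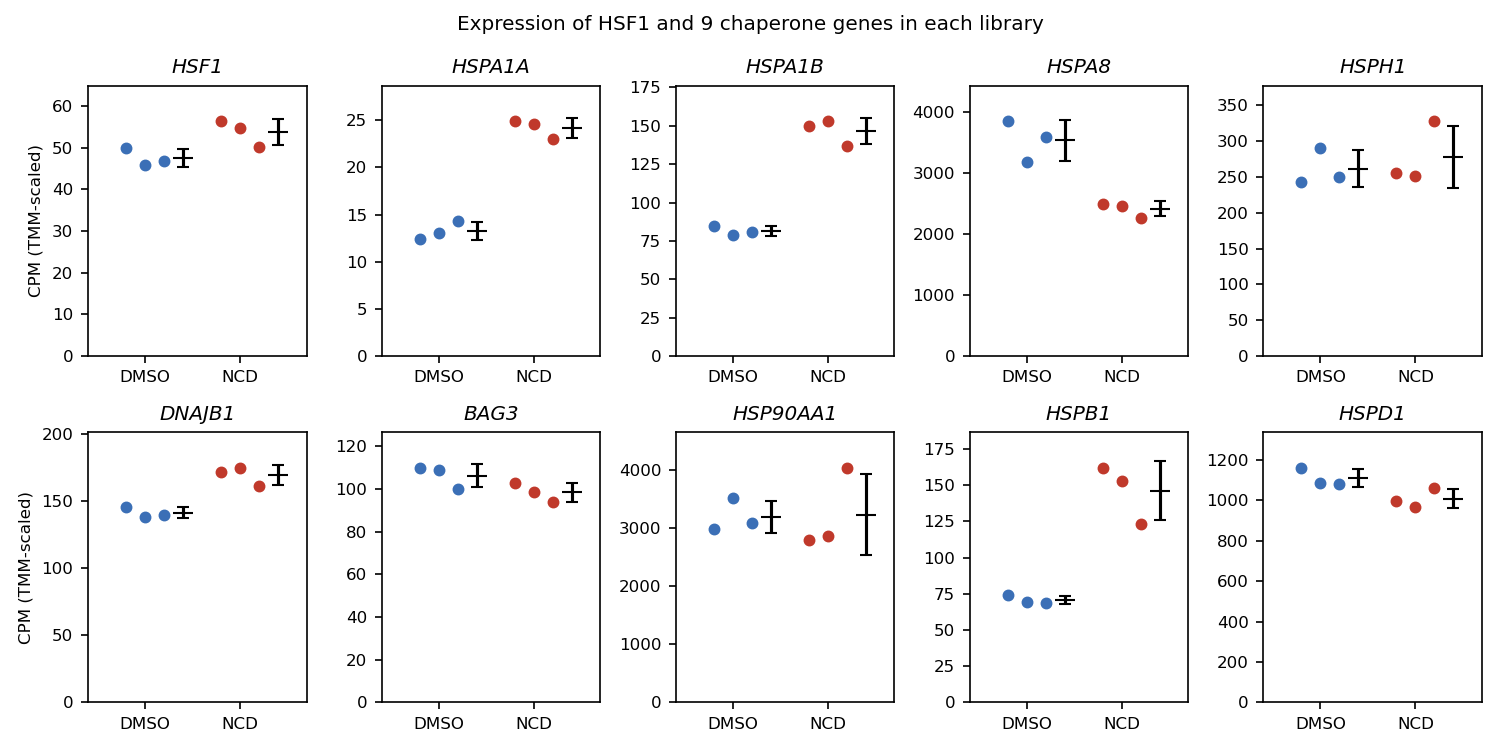
Expression of HSF1 and the 9 chaperone genes in each library, in TMM-scaled CPM on axes that start at 0, with DMSO libraries in blue and NCD libraries in red, and the mean with its SD (n = 3) beside them in black. The NCD points lie above all DMSO points for HSF1, HSPA1A, HSPA1B, DNAJB1 and HSPB1, below them for HSPA8 and HSPD1, and among them for HSPH1, BAG3 and HSP90AA1.

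HSF1 (ENSG00000185122), on chromosome 8, was at 49.9, 45.9 and 46.9 CPM with DMSO and at 56.4, 54.8 and 50.2 CPM with NCD. Every NCD library was above every DMSO library, the lowest of them by less than 1 CPM. The log2 fold change was 0.18 (SE 0.07, 95% CI 0.01 to 0.35, edgeR adjusted p = 0.0563), so the difference did not pass the threshold. Without the third NCD library it was 0.21 with an edgeR adjusted p of 0.0247. The exact permutation test over the 6 libraries gave p = 0.1, the smallest value that 3 against 3 can give.

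Most of the other heat shock factors and proteins that act on HSF1 passed the test. Of 10 tested genes of this list 9 passed the adjusted p (90.0%, against 69.3% of all tested genes), with 6 higher and 3 lower, and 3 of the 10 were differentially expressed, against 31.0%. The list had a median log2 fold change of 0.49. HSF2, a factor that can form mixed trimers with HSF1, was at 29.4, 30.3 and 32.7 CPM with DMSO and at 42.8, 40.6 and 46.3 CPM with NCD, a log2 fold change of 0.49 (SE 0.08, edgeR adjusted p = 0.000561). SIRT1, the deacetylase that prolongs the binding of HSF1 to DNA, rose from 39.2, 47.2 and 41.4 CPM to 103, 103 and 115 CPM (log2 fold change 1.33). FBXW7, the ubiquitin ligase adaptor that targets nuclear HSF1 for degradation, fell from 14.8, 17.0 and 15.8 CPM to 4.33, 3.47 and 4.76 CPM (log2 fold change -1.92). CREBBP, an acetyltransferase, fell by 1.07 on the log2 scale. HSBP1, another gene of this list that was named after its values were seen, had a log2 fold change of 0.51 (SE 0.09, edgeR adjusted p = 0.00064). The 2 groups did not overlap for HSF2, SIRT1, FBXW7, CREBBP or HSBP1. The bearing of these changes on the activity of HSF1 was not tested. FBXW7 spans 215.52 kb and CREBBP 155.67 kb, very long genes as a class were lower with NCD, and the part of span in these falls was not tested.

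The inducible HSP70 genes were about 1.8-fold higher with NCD. HSPA1A (chr6:31815464-31817946) and HSPA1B (chr6:31827735-31830255) are intronless neighbours in the major histocompatibility complex class III region. HSPA1A was at 12.4, 13.0 and 14.3 CPM with DMSO and at 24.9, 24.6 and 23.0 CPM with NCD, a log2 fold change of 0.87 (SE 0.09, edgeR adjusted p = 2.92e-05). HSPA1B was at 84.7, 78.7 and 80.5 CPM with DMSO and at 150, 153 and 137 CPM with NCD, a log2 fold change of 0.85 (SE 0.07, edgeR adjusted p = 3.78e-06). Both groups were tight, with a coefficient of variation of at most 7.4%, and did not overlap for either gene. The 2 genes encode nearly the same protein, their coding sequences are identical at 1922 of 1926 aligned positions, and 69.9% of all 100-base windows of the HSPA1A transcript also occur in HSPA1B. The split of reads between them is therefore uncertain. With their counts added the level was 97.1, 91.7 and 94.8 CPM with DMSO and 175, 178 and 160 CPM with NCD, and the log2 fold change of the sum was 0.85 (SE 0.06, 95% CI 0.71 to 0.99, edgeR adjusted p = 2.81e-06). Leaving out each library in turn moved it between 0.81 and 0.88. HSPA1B exceeded HSPA1A by a TPM ratio of 6.08 ± 0.6 with DMSO and 5.97 ± 0.144 with NCD (SD, n = 3 each), and this ratio overlapped between the groups.

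HSPA8, the constitutive HSP70, moved the other way. It was at 3849.2, 3184.6 and 3583.6 CPM with DMSO and at 2498.0, 2466.3 and 2268.9 CPM with NCD. The highest NCD library lay well under the lowest DMSO library. The log2 fold change was -0.55 (SE 0.09, 95% CI -0.75 to -0.35, edgeR adjusted p = 0.000443), a fold change of 0.681, and the lowest and highest values with a library omitted were -0.63 and -0.52. The gene (chr11:123057489-123063230, minus strand) spans 5.74 kb, and among 1468 tested genes of similar span only 9.88% had a lower log2 fold change, against a median of 0.39 for that class. Its coding sequence is 73.7% identical to that of HSPA1A, far less than the likeness of HSPA1A and HSPA1B. These are bulk libraries, so a lower level in every cell and a larger change in some of the cells cannot be told apart.

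The make-up of HSP70-family mRNA was compared within each library, on TPM values that correct for transcript length. The family was taken here as HSPA1A, HSPA1B, HSPA1L, HSPA2, HSPA5, HSPA6, HSPA8, HSPA9, HSPA12A, HSPA12B, HSPA13 and HSPA14. It left out HSPA4, HSPA4L, HYOU1 and HSPH1, so the shares do not describe the wider HSP70 and HSP110 family. HSPA8 made up 76.0, 72.4 and 75.1% of it with DMSO and 62.8, 62.8 and 60.7% with NCD. HSPA1A and HSPA1B together made up 1.95% ± 0.0821 with DMSO and 4.3% ± 0.121 with NCD (SD, n = 3 each). The constitutive gene held the largest share in every library, and the ratio of HSPA8 to HSPA1A plus HSPA1B was 38.2 ± 2.53 with DMSO and 14.4 ± 0.214 with NCD (SD, n = 3 each) with no overlap. HSPA9, the mitochondrial HSP70, took a larger share too, from 7.72% ± 0.574 to 15.2% ± 0.495 (SD, n = 3 each), and its own log2 fold change was 0.69 (SE 0.06, edgeR adjusted p = 5.6e-06). The share of HSPA5, the HSP70 of the endoplasmic reticulum also known as BiP, was 11.9% ± 1.09 and 12.8% ± 0.487 (SD, n = 3 each) and overlapped between the groups, whereas its level was 883, 915 and 874 CPM with DMSO and 803, 773 and 792 CPM with NCD, a log2 fold change of -0.17 (SE 0.06, edgeR adjusted p = 0.0222). For the shares and ratios that did not overlap the two-sided exact permutation p was 0.1, the smallest possible here. HSPA6, the HSP70 gene that many cells switch on only under strong heat shock, was at 0.932 to 1.39 CPM with DMSO and 1.26 to 2.59 CPM with NCD, and its log2 fold change of 0.60 did not pass (edgeR adjusted p = 0.133).

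**Figure D2:**
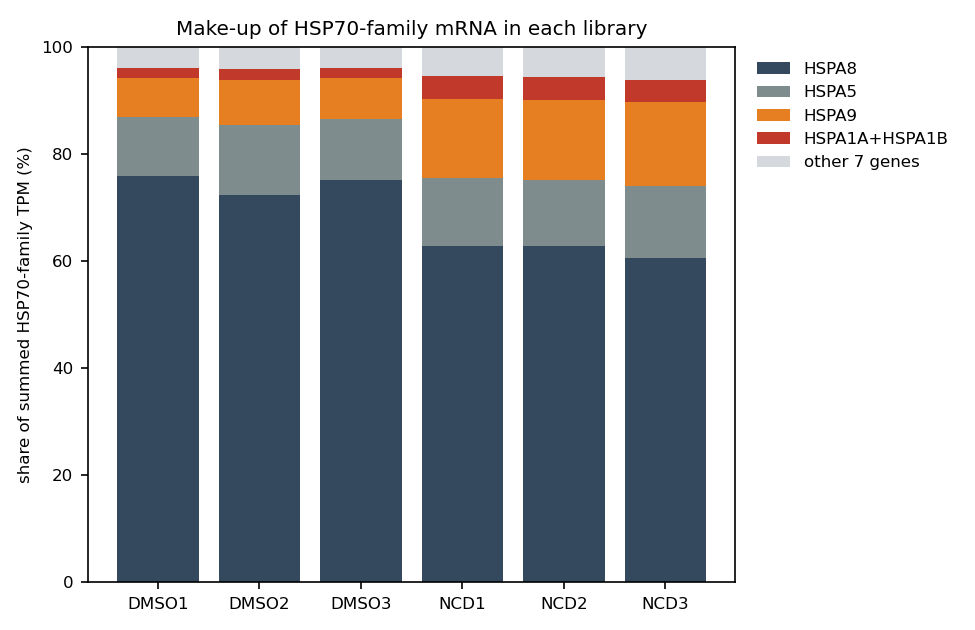
Share of each HSP70 gene in the summed TPM of the HSP70 family, in percent, with 1 stacked bar for each library. HSPA4, HSPA4L, HYOU1 and HSPH1 are not part of the sum. The HSPA8 block covers 72.4 to 76.0% of the DMSO bars and 60.7 to 62.8% of the NCD bars, and the blocks of HSPA9 and of HSPA1A plus HSPA1B are larger in all 3 NCD bars.

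The cochaperones that work with HSP70 differed among themselves. DNAJB1, the HSP40 that delivers clients to HSP70 and helps to dissolve aggregates, was at 146, 138 and 140 CPM with DMSO and at 172, 175 and 161 CPM with NCD. All NCD libraries were above all DMSO libraries, and the log2 fold change was 0.26 (SE 0.06, 95% CI 0.13 to 0.39, edgeR adjusted p = 0.0033). HSPH1, the HSP110 that exchanges nucleotide on HSP70, was at 243, 291 and 250 CPM with DMSO and at 255, 251 and 328 CPM with NCD. The groups overlapped and the log2 fold change was 0.09 (SE 0.11, 95% CI -0.17 to 0.35, edgeR adjusted p = 0.503). Its sign rested on the third NCD library, the highest of the 6, without which it was -0.064. BAG3, which links HSP70 to HSPB8 in selective autophagy, was at 110, 109 and 100 CPM with DMSO and at 103, 98.5 and 94.0 CPM with NCD. These groups overlapped as well, with a log2 fold change of -0.11 (SE 0.07, 95% CI -0.26 to 0.04, edgeR adjusted p = 0.163). There was less HSPA8 mRNA per cochaperone mRNA in the NCD libraries. The TPM ratio of HSPA8 to DNAJB1 was 23.0 ± 1.55 with DMSO and 13.1 ± 0.251 with NCD, that to HSPH1 was 28.9 ± 5.26 and 18.7 ± 3.54, and that to BAG3 was 34.8 ± 3.7 and 25.5 ± 0.531 (SD, n = 3 each), with no overlap between the groups in any of them.

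HSP90AA1, the inducible HSP90 of the cytosol, did not pass the test. It was at 2991.7, 3516.0 and 3094.7 CPM with DMSO and at 2806.6, 2863.7 and 4046.6 CPM with NCD. The third NCD library was the highest of all and the other two NCD libraries were the lowest. The log2 fold change was 0.02 (SE 0.14, 95% CI -0.31 to 0.34, edgeR adjusted p = 0.922), and without the third NCD library it was -0.191. HSP90AA1 and HSPH1 were high in the same libraries, the second DMSO library and the third NCD library. These are the libraries that stood apart in their groups over all genes, so the likeness is not particular to this pair. HSP90B1 (893 and 664 CPM) and DNAJC13 (110 and 39.4 CPM) were also highest of their group in them. HSPA8 was the lowest of its group in both. HSP90AB1, the constitutive HSP90, was at 3025.6, 2937.7 and 2904.0 CPM with DMSO and at 2171.4, 2039.3 and 2114.6 CPM with NCD, where the third library lay between the other two. Its log2 fold change was -0.49 (SE 0.07, edgeR adjusted p = 0.000153). The TPM ratio of HSP90AA1 to HSP90AB1 was 0.753, 0.912 and 0.812 with DMSO and 0.985, 1.07 and 1.46 with NCD, so the inducible form was relatively more abundant in every NCD library. HSP90B1, the HSP90 of the endoplasmic reticulum, fell by 0.51 on the log2 scale (edgeR adjusted p = 0.00124).

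**Figure D3:**
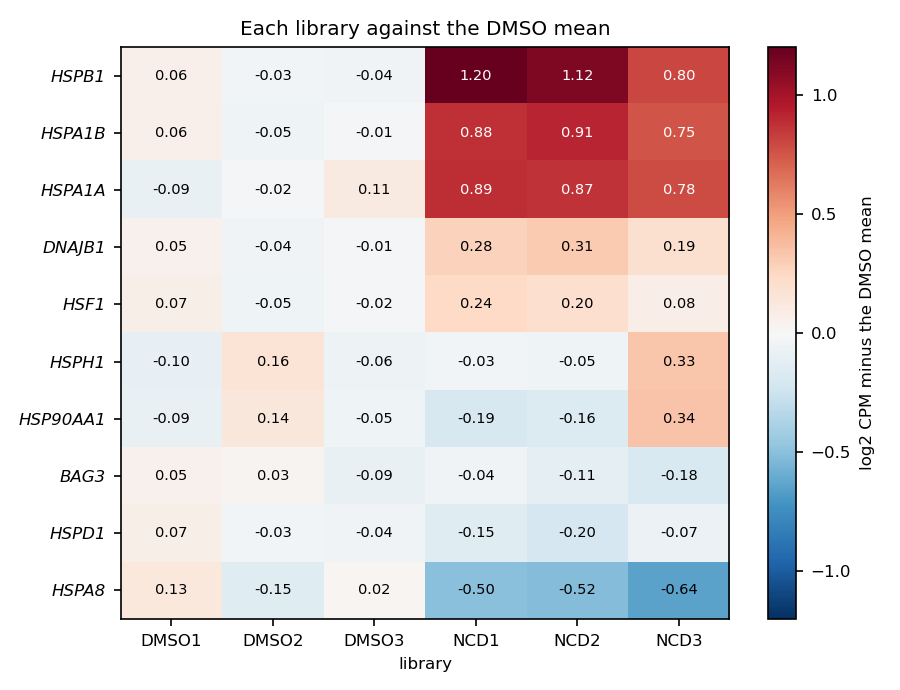
Difference of log2 CPM in each library from the mean of the 3 DMSO libraries, for HSF1 and the 9 chaperone genes, with red above and blue below that mean and the value written in each cell. HSPB1, HSPA1B and HSPA1A are above the DMSO mean by 0.75 to 1.20 in all NCD libraries and HSPA8 is below it by 0.50 to 0.64, while HSPH1 and HSP90AA1 reach 0.33 and 0.34 in the third NCD library only.

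HSPB1, which encodes the small heat shock protein HSP27 that holds unfolding proteins in oligomers, had the largest change of the 10 genes. It was at 73.8, 69.1 and 68.7 CPM with DMSO and at 162, 153 and 123 CPM with NCD. The groups were far apart, although the third NCD library lay nearest to the DMSO level. The log2 fold change was 1.05 (SE 0.10, 95% CI 0.83 to 1.28, edgeR adjusted p = 1.49e-05), a fold change of 2.08. It lay close to the fold threshold, and without the first NCD library it was 0.949, so that no gene of the 10 was then differentially expressed. HSPB1 lies on chr7:76302544-76304295, plus strand. Among 9 other genes named as small heat shock proteins 2 passed the filter on low counts, and CRYAB, the lens and muscle crystallin, had no count in any library. HSPB8, the BAG3 partner, was at 0.904, 0.736 and 0.439 CPM with DMSO and at 6.34, 6.05 and 5.41 CPM with NCD, a log2 fold change of 3.10 (SE 0.24, edgeR adjusted p = 3.81e-06). HSPB8 lay below the level set for named genes and was chosen after its values were seen. HSPB11, the other gene that passed the filter and in truth an intraflagellar transport protein, had a log2 fold change of 0.08 (edgeR adjusted p = 0.451). The TPM ratio of HSPB1 to HSPB8 was 193, 223 and 371 with DMSO and 60.6, 60.0 and 54.0 with NCD. The DMSO ratios rest on only 15, 13 and 8 counts of HSPB8 and are imprecise.

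HSPD1 was at 1160.5, 1086.3 and 1080.2 CPM with DMSO and at 997, 967 and 1057.9 CPM with NCD. All NCD libraries were below all DMSO libraries, but the log2 fold change of -0.14 (SE 0.07, 95% CI -0.29 to 0.01, edgeR adjusted p = 0.0867) did not pass. Without the third NCD library it was -0.192 with an edgeR adjusted p of 0.0305. HSPE1, whose HSP10 protein caps the HSP60 barrel and which shares a promoter region with HSPD1, had a log2 fold change of -0.10 (edgeR adjusted p = 0.415). The TPM ratio of HSPD1 to HSPE1 was 1.19 ± 0.123 with DMSO and 1.16 ± 0.155 with NCD (SD, n = 3 each) and overlapped. The direction of HSPD1, HSPE1, HSPA5 and BAG3 depended on scaling. Scaling by library totals raises the median of all genes by 0.20, and it gave them log2 fold changes of 0.060, 0.103, 0.023 and 0.088.

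The same scaling left the direction of HSPA1A, HSPA1B, DNAJB1, HSPB1 and HSPA8, the 5 of the 10 genes that passed the test. Under it the log2 fold change was 1.063 for HSPA1A, 1.047 for HSPA1B and 1.249 for HSPB1, which put 3 of the 10 past the fold threshold, and it was 0.459 for DNAJB1, -0.355 for HSPA8 and 0.375 for HSF1, the last with an edgeR adjusted p of 0.000859. Over all genes it turned the split of 2067 higher and 2669 lower into 2793 higher and 2181 lower.

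The levels of the 10 genes differed widely when compared per transcript length. In DMSO HSPA8 came first at 2780 ± 105 TPM, followed by HSP90AA1 at 1770 ± 258, HSPD1 at 875 ± 32.4, HSPB1 at 150 ± 5.66, DNAJB1 at 121 ± 3.8, HSPH1 at 98.0 ± 15.3, BAG3 at 80.3 ± 6.23, HSPA1B at 62.5 ± 1.56, HSF1 at 43.0 ± 1.03 and HSPA1A at 10.4 ± 1.04 TPM (SD, n = 3 each). Among these neighbours the libraries overlapped only between HSPH1 and BAG3. With NCD the order of the means was the same except that HSPA1B, at 125 ± 1.74 TPM (SD, n = 3), came sixth, above HSPH1 and BAG3. The NCD libraries overlapped between HSPA8 and HSP90AA1 and between HSPA1B and HSPH1, since in the third NCD library HSP90AA1 at 2610 TPM exceeded HSPA8 at 2090 TPM and HSPH1 at 143 TPM exceeded HSPA1B at 123 TPM. The 10 genes together held 0.799% ± 0.0083 of all counts with DMSO and 0.811% ± 0.0806 with NCD (SD, n = 3 each), with the third NCD library at 0.904%. This share of all counts, which is not TMM-scaled, overlapped between the groups. It does not describe the summed TMM-scaled level.

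The rest of the chaperone network was described by 10 lists holding 125 other genes, of which 112 were tested. Differential expression was seen in 20 of them, 11 higher and 9 lower, or 17.9% against 31.0% of all tested genes. With no fold threshold 39 were higher and 30 lower, or 34.8% and 26.8%, against 35.3% and 34.1% of all tested genes. The counts for each list below use the rule with no fold threshold, and their share of either direction is to be read against 69.3% of all tested genes. The median log2 fold change over the 112 was 0.06. Of 26 tested J-domain proteins 7 were higher and 6 lower (13 of 26), and the largest changes were in DNAJB4, a cytosolic HSP40 (1.60), DNAJB9, a stress-induced HSP40 of the endoplasmic reticulum (1.18), DNAJC13, which acts at endosomes (-1.63), and DNAJC3, an inhibitor of the kinase PERK (-1.39). DNAJC13 spans 121.51 kb and DNAJC3 117.85 kb, and the part of span in their falls was not tested. Of 12 tested genes of the HSP70 and HSP110 family 6 were higher and 3 lower (75.0%). HSPA2, the testis-enriched HSP70, had a log2 fold change of 1.44 from 1.27 to 1.81 CPM with DMSO, and was chosen after its values were seen.

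Among 11 exchange factors and cochaperones of HSP70, 4 were higher and 3 lower (63.6%), and SIL1, the exchange factor of BiP, fell from 35.8, 30.4 and 30.1 CPM to 3.5, 3.62 and 2.84 CPM (log2 fold change -3.27). SIL1 spans 346.84 kb, and the part of span in its fall was not tested. Of 21 genes of the HSP90 family and its cochaperones 6 were higher and 9 lower (71.4%). CHORDC1, an HSP90 cochaperone that is itself induced by heat, was at 174, 164 and 159 CPM with DMSO and at 19.7, 18.8 and 20.9 CPM with NCD, a log2 fold change of -3.06 (SE 0.07, edgeR adjusted p = 1.16e-08). This was the largest fall among the listed genes under 100 kb, since CHORDC1 spans only 22.2 kb. Its promoter is shown because it held the most elements of those examined, with 6 of 2 units and 3 of 3 units, of which the 30 bases below hold 4 and 3.
CHORDC1, chr11:90223083-90223112, minus strand: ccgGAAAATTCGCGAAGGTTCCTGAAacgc
CDC37L1, a relative of the kinase cochaperone CDC37, rose by 1.21 on the log2 scale.

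Of the 8 subunits of CCT, the cytosolic chaperonin, 0 were differentially expressed in edgeR, against 31.0% of all tested genes, and likewise 0 in DESeq2 and limma-voom. Their log2 fold changes lay between -0.24 and 0.12. At an unadjusted p below 0.05 edgeR found 2 lower, CCT2 and CCT4 (named after their values were seen), which also passed the adjusted p (25.0%), and DESeq2 found 4 lower. Of 6 prefoldin subunits 2 were lower (33.3%), and PFDN1, which spans 58.08 kb, fell by 1.23 on the log2 scale. Of 5 mitochondrial chaperonin and protease genes 2 were higher and 1 lower (60.0%), the latter being CLPB, a disaggregase that spans 149.19 kb (-1.28). Of 26 tested other genes of the heat shock response 12 were higher and 6 lower (69.2%). ATF3, a stress-induced transcription factor, rose from 6.93, 6.68 and 5.43 CPM to 61.8, 61.7 and 52.0 CPM (log2 fold change 3.21), and RGS2, a regulator of G protein signalling that heat shock also induces, rose by 2.29 on the log2 scale. Both are induced by many stresses besides heat.

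**Figure D4:**
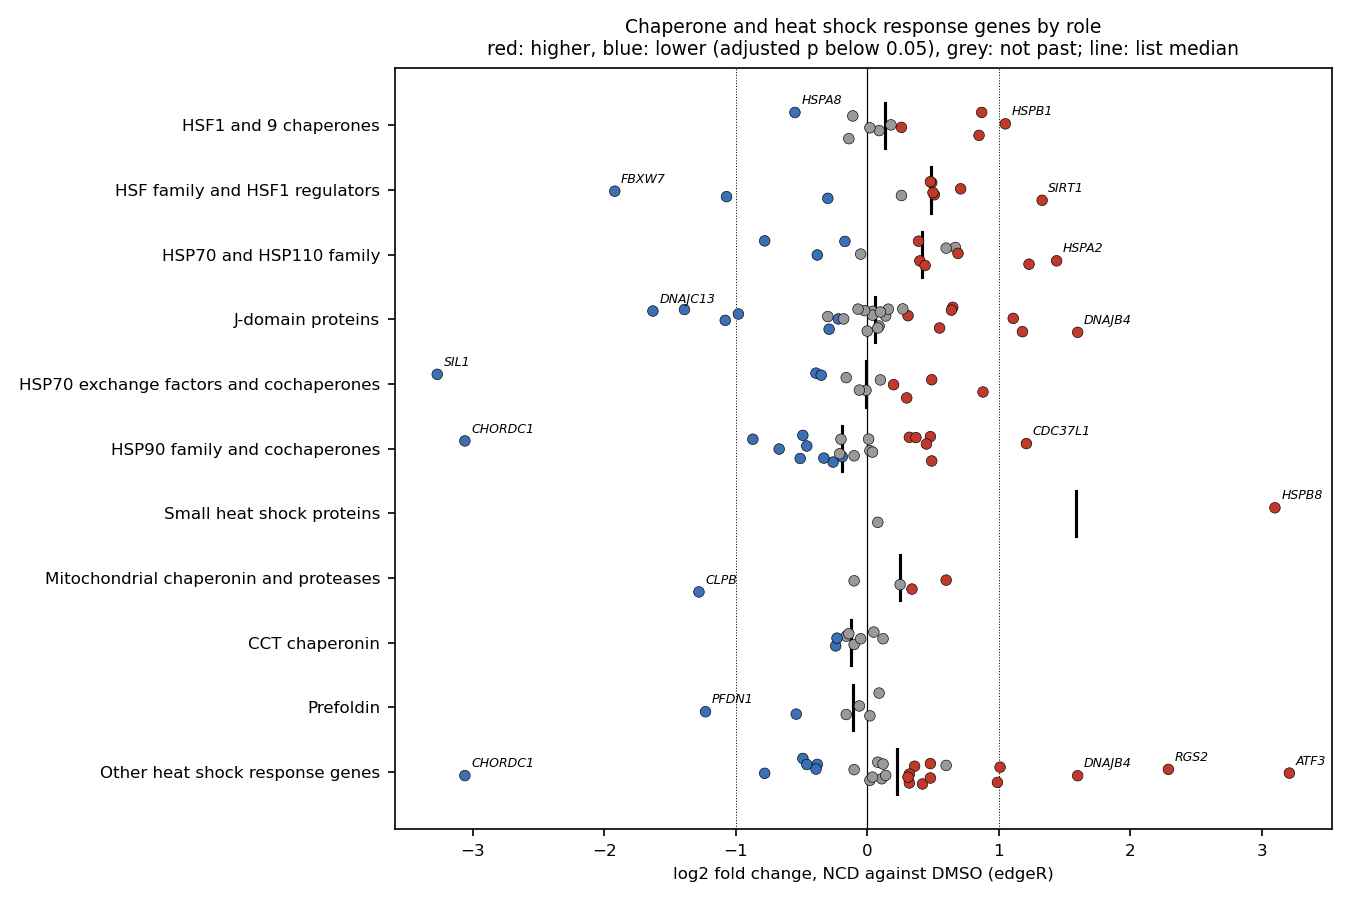
Log2 fold change of NCD against DMSO from edgeR for every tested gene of each list, with 1 point per gene placed at random height within its row, red or blue where the adjusted p is below 0.05, grey otherwise, a black line at the list median and dotted lines at the fold threshold. The 8 CCT subunits lie within 0.24 of 0, while HSPB8, ATF3, SIL1 and CHORDC1 lie beyond 3 in either direction.

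The log2 fold changes were set beside the elements for the 9 genes with a promoter entry, as a description. Those with a 3-unit element had log2 fold changes of -0.55 (HSPA8), 0.02 (HSP90AA1) and -0.14 (HSPD1). Those with 2-unit elements only had 0.87 (HSPA1A), 0.85 (HSPA1B), 0.26 (DNAJB1) and 1.05 (HSPB1). All 4 of these passed the adjusted p with higher levels, against 35.3% of all tested genes. HSPA1A and HSPA1B are not independent cases among them, since the split of their reads is uncertain. Among those with a 3-unit element HSPA8 alone passed, with a lower level, against 34.1% of all tested genes. HSPH1 and BAG3, with no element found, had 0.09 and -0.11. Over all tested genes with a promoter entry, 49 held a 3-unit element, and their median log2 fold change was -0.53, with 1 differentially expressed gene higher (2.04%) and 17 lower (34.7%). The 11026 genes without one had a median of 0.02, with 12.3% higher and 18.0% lower. The genes with the element were longer, with a median span of 58.0 kb against 32.2 kb, and the part of span in this difference was not tested.

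Gene span moved strongly with the log2 fold change in these libraries, so each gene was set beside tested genes of similar span. The median log2 fold change was 0.245 in the class with the shortest spans, up to 3.706 kb, and -2.091 in the class with the longest, from 153.148 kb, when the genes were cut into 10 classes of equal size. HSPA1A, HSPA1B and HSPB1 belong to the shortest class and exceeded 75.3%, 74.9% and 80.8% of its 1471 genes. DNAJB1 (15.0 kb) and HSF1 (23.13 kb) exceeded 40.8% and 40.9% of theirs, so that they lay a little under the middle of their class. HSPH1, BAG3 and HSPD1 exceeded 34.9%, 24.7% and 34.0%. HSP90AA1 (58.96 kb) exceeded 69.2% of a class with a median of -0.35. These are positions among genes and not tests.

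**Figure D5:**
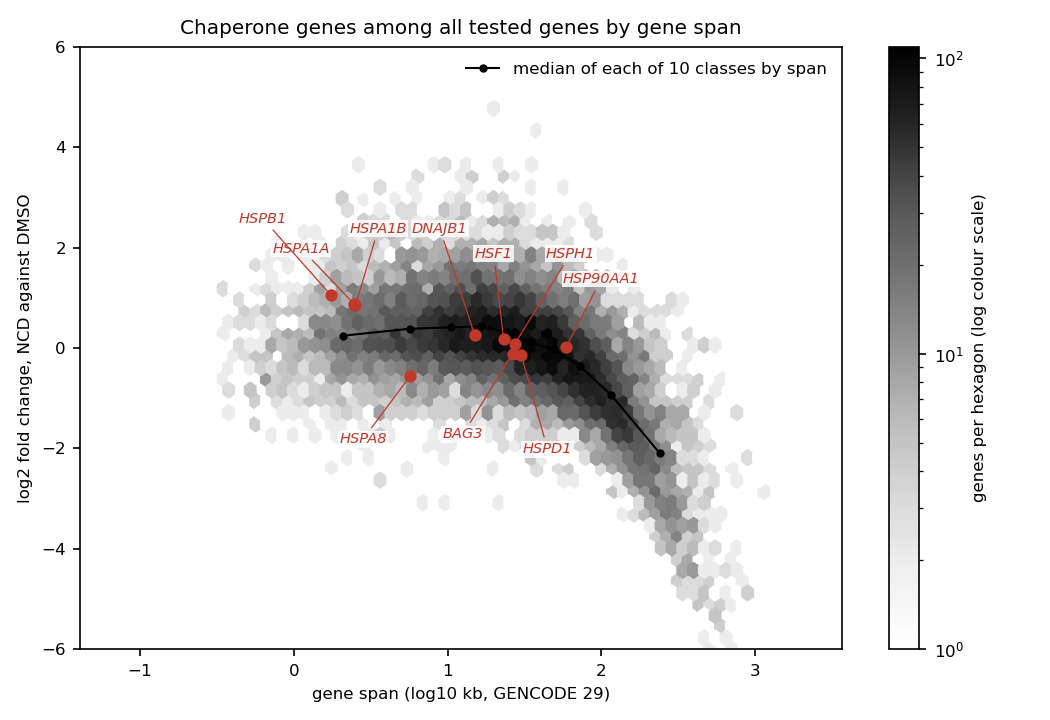
Log2 fold change of NCD against DMSO against gene span in kb on a log10 axis for all tested genes with a span, as hexagons shaded by the number of genes, with the median of each of the 10 classes drawn in black at its median span and the 10 heat shock genes as red points. HSPB1, HSPA1A and HSPA1B lie above the black line and HSPA8 below it, and 27 genes beyond 6 on the vertical axis are not drawn.

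The protein-coding genes whose pattern over the 6 libraries lay nearest to HSF1 and to the summed HSPA1A and HSPA1B were sought among 10492 tested genes, by the root mean square distance of log2 CPM centred on each gene's own mean. For HSF1 these were MRGBP, PCBP1 and TXNDC15, at distances of 0.016, 0.016 and 0.017 on the log2 scale and with log2 fold changes of 0.18, 0.18 and 0.20. For HSPA1A plus HSPA1B they were UBE2A, POLR3C and PGAP2, at 0.020, 0.021 and 0.021 and with log2 fold changes of 0.85, 0.85 and 0.86. None of the 6 is a listed chaperone gene, but the other listed genes were only 112 of the 15295 tested genes. Their fold changes are close to those of the genes sought because the distance selects for a like pattern.

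Several of the genes overlap others on the opposite strand, and whether the counting used strand is not stated. The overlapping genes held up to 336.03 counts in a library for DGAT1 (beside HSF1), 2089 for TECR (beside DNAJB1), 671 for WDR20 (beside HSP90AA1), and 7972.48 for HSPE1 and 2211.59 for MOB4 (beside HSPD1). Reads from such partners cannot be told apart where the transcripts overlap. Processed pseudogenes of HSPA8, HSPD1, HSP90AA1, HSPB1 and DNAJB1 held at most 0.137% of the counts of their parent gene.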

How the data were processed

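RNA-seq of MDA-MB-231 cells was analysed for 3 libraries with 5 µM NCD and 3 with 0.1% DMSO. NCD replicates 2 and 3 carry other cell line numbers in their descriptions. Their cell line field gives MDA-MB-231 and was followed. The deposited values are expected counts per Ensembl gene, made by the authors with RSEM from reads aligned with HiSat2. The submitters' processing notes name GRCh38. Tool versions, annotation release and strand setting are not given in the sources used here. In each file 25 lines of stray text were skipped. Symbols were found for 62666 of 63241 identifiers, and spans, coordinates and transcript lengths came from GENCODE 29, which covers 99.44% or more of every library's counts.

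Expected counts were rounded and analysed in edgeR 4.0.16 (R 4.3.3) with filterByExpr, TMM (factors 0.9115 to 0.9494 with DMSO and 1.059 to 1.092 with NCD), glmQLFit and glmQLFTest, with Benjamini-Hochberg adjustment over all 15295 tested genes. SE was the size of the log2 fold change over the square root of F. TPM, which is not TMM-scaled, used the principal transcript of each gene and served for levels between genes and ratios within a library. Permutation tests (scipy 1.17.1) were exact and two-sided. On simulated counts 191 of 192 changed genes among 14624 tested were recovered, with 1 false call. Far fewer genes changed there than in these data, and all of them by more than the fold threshold. The simulation therefore checks that the fit runs and cannot speak to scaling or to changes near the threshold. No pair of libraries of a group agreed within sampling noise. Totals are given in the report, and genes with few counts, such as HSPA6, are measured with little precision. The genes described and the lists were chosen with earlier results of these data known. Named genes are the 10 genes, 7 relatives or partners, up to 4 differentially expressed genes of at least 5 CPM from each list by size of change, and the 3 nearest patterns to HSF1 and to HSPA1A plus HSPA1B. Alternatives were limma-voom (limma 3.58.1), DESeq2 1.42.0 at adjusted P and at unadjusted P, other scaling, other filters, a replicate block and leaving out each library. The authors' DESeq2 results and the other experiments of the study were not used here.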

Additional observations from a re-analysis of the deposited data

How the results depend on the processing

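Of 518 values for 37 named genes under the alternatives, 464 kept their direction and their side of the threshold, 36 no longer passed, 5 newly passed and 13 changed sign. HSPA1A, HSPA1B, HSPA8, DNAJB1 and HSPB1 kept direction and adjusted p under every alternative run, and the summed HSPA1A and HSPA1B did too. The count of differentially expressed genes among the 10, all of them higher, was 1, 3 under library totals, and 0 to 1 with each library left out, with 0 without the first NCD library. The count of lower genes past the adjusted p was 1, 2 with DESeq2 at adjusted or unadjusted P (HSPD1 was added), and 1 to 2 with each library left out. Over all genes 2067 were higher, but 1376 where every library had to reach 10 counts, which left fewer genes to test. HSP90AA1, 0.02 in the reported fit, was -0.005 with DESeq2 at either P and with DESeq2 size factors in edgeR, -0.000 with limma-voom, -0.001 with the replicate block, and -0.191 (without NCD replicate 3) to 0.100 (without NCD replicate 2) with each library left out, being also -0.057 and -0.038 without DMSO replicates 1 and 3. HSPH1 was -0.064 (without NCD replicate 3) to 0.163 (without DMSO replicate 2). Under library totals HSPD1 was 0.060, BAG3 0.088, HSPA5 0.023 and HSPE1 0.103. HSPA5 did not pass with no filter (edgeR adjusted p = 0.0586), without NCD replicate 2 (0.102) or with the replicate block (0.0595). MRGBP, PCBP1 and TXNDC15, the nearest patterns to HSF1, lost their calls under most alternatives. The deviations of log2 CPM from the mean of each group correlated at 0.216, -0.185 and 0.023 between same-numbered libraries. The numbers were therefore not taken to pair the libraries. With the replicate block the counts among the 10 genes were 1 differentially expressed and 5 past the adjusted p, as without it. The cause of these shifts was not tested. Depth limits HSPA6, at 0.932 to 2.59 CPM, and HSPB8, at 0.439 to 0.904 CPM with DMSO. Intervals cover the spread between 3 libraries per group.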

Other observations

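Chaperone genes of the endoplasmic reticulum and of mitochondria were set side by side after their values were seen, as a description. In the endoplasmic reticulum DNAJB9, the HSP40 that holds the sensor IRE1 inactive, was at 19.7, 20.2 and 18.9 CPM with DMSO and at 44.7, 45.3 and 42.7 CPM with NCD. HYOU1, a large HSP70 relative that exchanges nucleotide on BiP, had a log2 fold change of 0.44 (SE 0.07) and HSPA13 one of 0.39 (SE 0.07). SIL1, also an exchange factor of BiP, had a log2 fold change of -3.27. DNAJC3 fell by 1.39, DNAJC10, a reductase with a J domain, by 0.98 and HSP90B1 by 0.51 on the log2 scale. HSPA5 (BiP) had a log2 fold change of -0.17, which turned to 0.023 under library totals. All of these passed the edgeR adjusted p, whereas DNAJB11, a BiP cofactor, did not, at 0.04 (SE 0.05). The genes that were lower here are not alike in span, and the part of span was not tested. The spans were 346.84 kb for SIL1, 117.85 kb for DNAJC3, 78.42 kb for DNAJC10, 23.54 kb for HSP90B1 and 6.48 kb for HSPA5.

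In mitochondria HSPA9 was at 709, 707 and 686 CPM with DMSO and at 1136.8, 1120.9 and 1129.3 CPM with NCD. GRPEL2, a nucleotide exchange factor of HSPA9, was at 59.7, 53.7 and 57.0 CPM with DMSO and at 98.5, 101 and 113 CPM with NCD, a log2 fold change of 0.88 (SE 0.07, edgeR adjusted p = 7.41e-06). Its paralog GRPEL1 overlapped between the groups, with a log2 fold change of -0.06 (SE 0.08, edgeR adjusted p = 0.503). CLPX, the unfoldase of the ClpXP protease, and LONP1, a matrix protease, were higher by 0.60 and 0.34 on the log2 scale. TRAP1, the mitochondrial HSP90, was lower at -0.67 (SE 0.08). CLPB, which spans 149.19 kb, was lower at -1.28 (SE 0.08), and the part of span was not tested. CLPP, of the same list as CLPX, did not pass, at 0.25 (edgeR adjusted p = 0.0535). HSPA9 and GRPEL2 thus rose in libraries where the chaperonin genes HSPD1 and HSPE1 did not pass the test. HSPA9 spans 21.97 kb and GRPEL2 9.15 kb, in span classes with median log2 fold changes of 0.322 and 0.411. The class of HSPD1 had 0.111, and the part of span in this contrast was not tested.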
